A study of Rattus norvegicus with 91 samples.

Results

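The genes described here were high in rat liver in the first day after the synthetic glucocorticoid methylprednisolone and near the control level days later. They were picked from the longer of a pair of time courses by their measured values, on the scale log2(signal + 32). The mean of the 6, 10, 13 and 18 h groups had to exceed the control mean by at least 0.6, and the mean of the 72, 96 and 168 h groups had to exceed it by at most 0.2. Only probe sets with 1 gene symbol and a mean of at least 7 over all arrays could enter. The rule found 46 probe sets of 45 genes among 5122 probe sets of 4630 genes that could enter, on an array of 15923 probe sets. Stat3 is present with both of its probe sets. The early rise alone was met by 245 probe sets, or 4.78% of those that could enter, and 199 of these, of 187 genes, did not return.

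All arrays came from liver RNA of Wistar rats, and the labels give methylprednisolone at 50 mg/kg. The long course holds 44 arrays, 4 controls and 4 at each of 10 times (6, 10, 13, 18, 24, 36, 48, 72, 96 and 168 h). The short course, on another array design, holds 47 arrays: 4 controls labelled time 0, 3 arrays at most of 16 times from 0.25 to 72 h, and 2 arrays at 2, 5, 12, 30 and 72 h. The sources used here do not give route, schedule, vehicle, time of day, age or sex, and nothing in them says whether replicate arrays are separate animals. P-values and errors therefore cover the spread from array to array alone, and that spread could be technical. In whole liver, fewer cells of a type and less RNA per cell cannot be told apart. Hepatocyte markers were bright throughout, with a mean albumin signal of 17000 in the long-course controls and 14700 at 6-18 h. Markers of other cells moved in the same windows. The sum of 4 red cell precursor markers, of 10 listed, ran from 433 to 3775 in the controls, 358 to 2382 at 6-18 h and 393 to 5444 at 72-168 h. That of 7 Kupffer cell and macrophage markers, of 14, ran from 2544 to 3110 in the controls and 1123 to 2755 at 6-18 h, and that of 2 B cell markers, of 8, from 689 to 1008 and 326 to 804. Their part in the members' values was not tested. Each array correlated with the others of its course at a mean of 0.908 to 0.953. The 15 long-course arrays with bright spike-in controls include every replicate 4, and with that split as a block the rule found 39 probe sets, all of them among the 46. The array titled 96 h replicate 1 is described as 72 h, and both times lie in the same window of the rule. The long-course array titled 48 h replicate 1 carries wording of the short course. Titles were used throughout.

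Glucocorticoids cross the cell membrane and bind the glucocorticoid receptor, which moves to the nucleus and raises or lowers the transcription of its target genes. In hepatocytes they are known for inducing enzymes of amino acid breakdown and glucose production, for supporting the acute-phase response together with interleukin-6 and Stat3, and for restraining inflammation. Making more protein needs more ribosomes: ribosomal RNA is copied, trimmed and modified in the nucleolus, and initiation factors then load ribosomes onto messenger RNA. Polyamines such as spermidine support both steps.

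The stretches before the start sites were read for 39 of the 45 genes, from RefSeq on the GRCr8 build, as 250 bases before to 50 after the start. The E-box CACGTG, the core site of Myc and of related factors, reads the same on both strands. It lay in 9 of 39 member promoters (23.1%), against 6.65% of all 27457 promoters and 10.4% of the 3926 promoters of genes that could enter. The 9 genes were Farsb, Ivns1abp, LOC102547700, Mt2A, Mybbp1a, Pla2g12a, Srm, Tsr1 and Wdr77. The receptor's core motif AGAACA, on either strand, lay in 5 (12.8%), against 20.1% of all and 12.0% of those that could enter. The STAT site TTCCNGGAA lay in 2 (5.13%), those of Fga and Rbm3, against 1.23% and 1.35%. The metal response elements TGCGCNC and TGCACNC, on either strand, lay in 9 (23.1%, against 15.0% and 27.7%) and 8 (20.5%, against 12.2% and 12.8%). A match is a description of the letters and not a site of binding. The first pair of promoters below belongs to members of the polyamine and nucleolar groups and shows the E-box in capitals, 1 in Srm and 2 in Mybbp1a. The Mt2A promoter shows the metal response elements in capitals, 4 in all.
Srm (chr5:164308752-164309051, plus strand): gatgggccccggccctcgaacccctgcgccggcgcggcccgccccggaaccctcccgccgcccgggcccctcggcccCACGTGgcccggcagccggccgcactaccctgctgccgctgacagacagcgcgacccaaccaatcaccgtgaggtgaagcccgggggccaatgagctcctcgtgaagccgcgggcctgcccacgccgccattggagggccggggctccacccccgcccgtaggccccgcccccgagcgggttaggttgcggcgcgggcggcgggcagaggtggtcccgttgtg
Mybbp1a (chr10:57555208-57555507, plus strand): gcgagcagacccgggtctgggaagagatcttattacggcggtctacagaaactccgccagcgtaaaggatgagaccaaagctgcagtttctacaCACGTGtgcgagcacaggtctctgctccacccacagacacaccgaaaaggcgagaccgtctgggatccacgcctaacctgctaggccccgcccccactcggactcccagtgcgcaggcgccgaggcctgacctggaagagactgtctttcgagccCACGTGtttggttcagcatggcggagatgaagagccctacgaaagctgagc
Mt2A (chr19:10838659-10838958, minus strand): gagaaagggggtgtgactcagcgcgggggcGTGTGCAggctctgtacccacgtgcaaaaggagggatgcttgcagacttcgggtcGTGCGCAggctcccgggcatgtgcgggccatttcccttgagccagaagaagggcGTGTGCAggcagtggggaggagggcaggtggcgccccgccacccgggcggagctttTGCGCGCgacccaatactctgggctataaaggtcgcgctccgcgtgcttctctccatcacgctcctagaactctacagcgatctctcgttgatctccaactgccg

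The values in the long course from 6 to 18 h and from 72 to 168 h chose the members and are given as a description, with no test. Over the 46 probe sets the median difference from control was 0.85, 0.94, 0.67 and 0.65 at the successive early times. It was 0.04, 0.01 and 0.01 at the middle times (24, 36 and 48 h). The middle times entered the rule only through the mean level over all arrays, but they share its controls. At the late times the median difference was 0.02, -0.05 and 0.06. The medians over all probe sets that could enter ran from -0.05 to 0.01 at these times. Means were lower at 24 h than at 18 h in 44 of 46, with Dhx29 and Hmox1 the exceptions, against 51.3% of the probe sets that could enter. High 18 h values helped to choose the members, so nothing is read from that count.

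**Figure D1:**
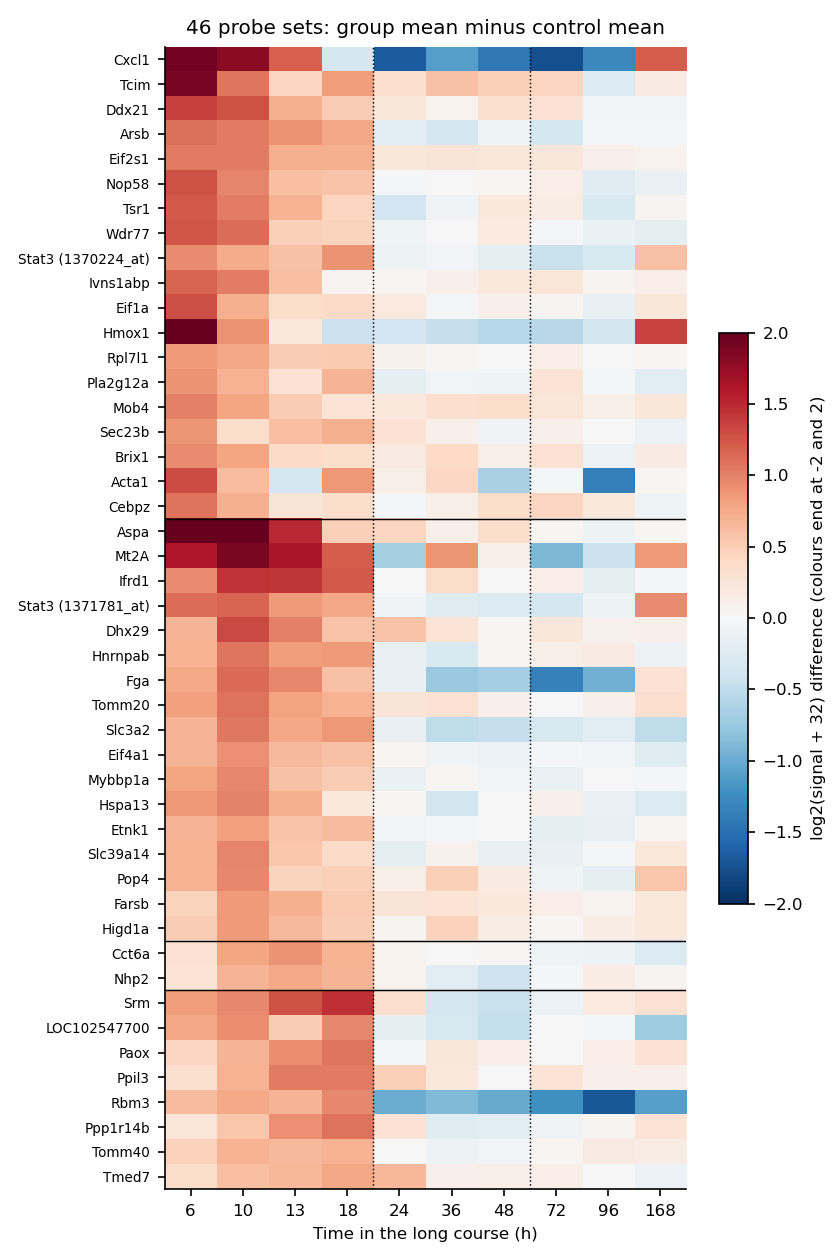
Each row is a member probe set, each column a time of the long course, and colour is the group mean (4 arrays) minus the control mean (4 arrays) of log2(signal + 32). Rows are parted by solid lines by the time of the highest early mean (6, 10, 13 and 18 h from top to bottom), and dotted lines part the early, middle and late windows. The median goes from 0.65 at 18 h to 0.04 at 24 h. The 18 h values helped to choose the members, so nothing is read from this fall. Tmed7 and Aspa hardly move between these times. Rbm3 ends below the controls, while Cxcl1 is below them from 24 to 96 h and above them at 168 h (1.22).

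The highest early mean was that of 6 h in 19 probe sets, of 10 h in 17, of 13 h in 2 and of 18 h in 8. All 16 early arrays lay above the control mean in 32 of 46, against 6.38% of those that could enter. They all lay above the highest control in only 3, Arsb, Nop58 and Rpl7l1, against 0.996%. The early and control values chose the members, so nothing is read from these counts beside their shares. The other probe set of Rpl7l1 that could enter had an early difference of 0.34, against 0.66 for the member. The controls spread widely, with a median SD of 0.49 on the log2 scale over the members. Array by array, the median over the members was -0.06, 0.47, -0.03 and -0.39 on the 4 controls. On the early arrays it ran from 0.31 to 1.07 and on the late arrays from -0.25 to 0.22. Control 2 thus stood above every late array, and controls 2 and 4 stood apart from the other two.

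**Figure D2:**
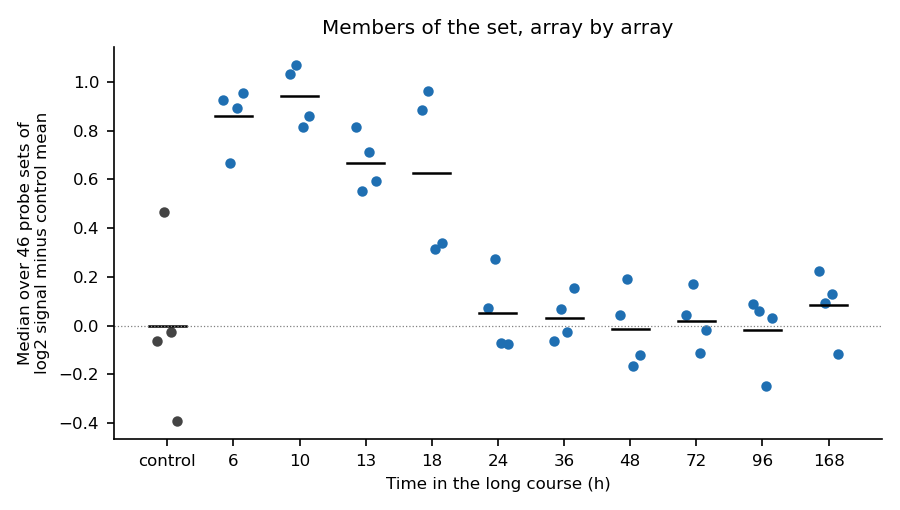
Points are single arrays of the long course (grey, controls; blue, treated), and height is the median over the 46 probe sets of log2(signal + 32) minus the control mean; bars are group means. The early arrays lie between 0.31 and 1.07, and the controls run from -0.39 to 0.47.

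Without control 4 the rule found 29 probe sets, 22 of them among the 46, and without control 2 it found 52, of which 26 were shared. Without control 1 or 3 it found 45 or 47, with 34 and 33 shared. Membership held whichever control was left out for 12 genes: Aspa, Mt2A, Ddx21, Arsb, Fga, Nop58, Slc3a2, Tsr1, Wdr77, LOC102547700, Eif4a1 and Rpl7l1. At the edges, Tmed7 (0.60) and Nhp2 (0.601) were just inside the early threshold, and Oxnad1 and Cdc34, both at 0.596, just outside. Cebpz (0.187) and Mob4 (0.196) were just inside the late threshold, and Kctd6 and Ddx1, both at 0.212, just outside. For the mean level, Tcim (7.01) and Pla2g12a (7.17) were just inside and Polr2c (6.98) and Cinp (6.73) just outside.

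Genes of ribosome making were among the members. Ddx21, a nucleolar RNA helicase of ribosomal RNA processing, had signals of 131, 122, 163 and 132 in the controls and 379, 493, 438 and 315 at 6 h. At 24 h they were 161, 277, 127 and 126. All 6 h arrays lay above all controls, while the groups overlapped at 24 h. Nop58, a core protein of the particles that methylate ribosomal RNA, had 166, 185, 167 and 196 in the controls, 508, 355, 549 and 527 at 6 h, and 189, 201, 172 and 137 at 24 h. Its controls were tight and no early array reached down to them. The early differences were 0.96 for Ddx21, 0.86 for Nop58, 0.84 for Tsr1, which matures the small subunit, 0.71 for the nucleolar Mybbp1a and 0.60 for Nhp2, which binds guide RNAs of pseudouridylation. These are the 5 members among 34 ribosome biogenesis and nucleolar genes that could enter. The whole list had a median early difference of 0.35 and a late one of -0.04, against -0.01 and -0.04 over all genes that could enter, and 8 of 34 reached 0.6. Brix1, Rpl7l1 and Pop4, which also act in making ribosomes or processing structured RNA, and Cebpz are members outside the list, with early differences of 0.62, 0.66, 0.65 and 0.60. They were grouped here after their values were seen.

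Translation factors and their partners formed the next group. Members among 48 listed translation factors and tRNA synthetases were Eif2s1, the alpha subunit of initiation factor eIF2 (0.88), the helicase Eif4a1 (0.71), the start-site scanning factor Eif1a (0.69) and Farsb, a subunit of phenylalanyl-tRNA synthetase (0.63). The list's median was 0.22 early and -0.06 late, and 7 of 48 reached 0.6. Dhx29, a helicase that helps ribosomes through structured leaders, stood at 0.89 early and 0.57 at 24 h. Eif1a was highest at 6 h (1.29) and Farsb at 10 h (0.84). The RNA-binding proteins Hnrnpab and Rbm3 stood at 0.86 and 0.76, the methylosome protein Wdr77 at 0.82 and the spliceosomal isomerase Ppil3 at 0.77.

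Srm and Paox, both of polyamine metabolism, had their highest early means at 18 h. Srm, spermidine synthase, had signals of 111, 247, 78.7 and 99.6 in the controls and 438, 524, 290 and 367 at 18 h. At 48 h they were 86.9, 94.0, 98.1 and 56.0. All 18 h arrays lay above all controls. Its difference climbed from 0.84 at 6 h through 0.95 and 1.28 to 1.46 at 18 h. Paox, which oxidises acetylated polyamines, went from 0.43 at 6 h to 1.08 at 18 h. Odc1, the entry enzyme of the pathway, had a larger early difference (1.69) but was still at 1.11 at 72-168 h and so is no member. Of 22 nucleotide, polyamine and one-carbon genes that could enter, Srm is the only member; their median early difference was 0.21, and 3 reached 0.6. The highest early mean was also at 18 h for Ppp1r14b, an inhibitor subunit of myosin phosphatase (1.09 at 18 h), Tomm40 (0.69) and Tmed7 (0.77). So it was for Ppil3 (1.04), Rbm3 (0.96) and LOC102547700 (0.96).

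**Figure D3:**
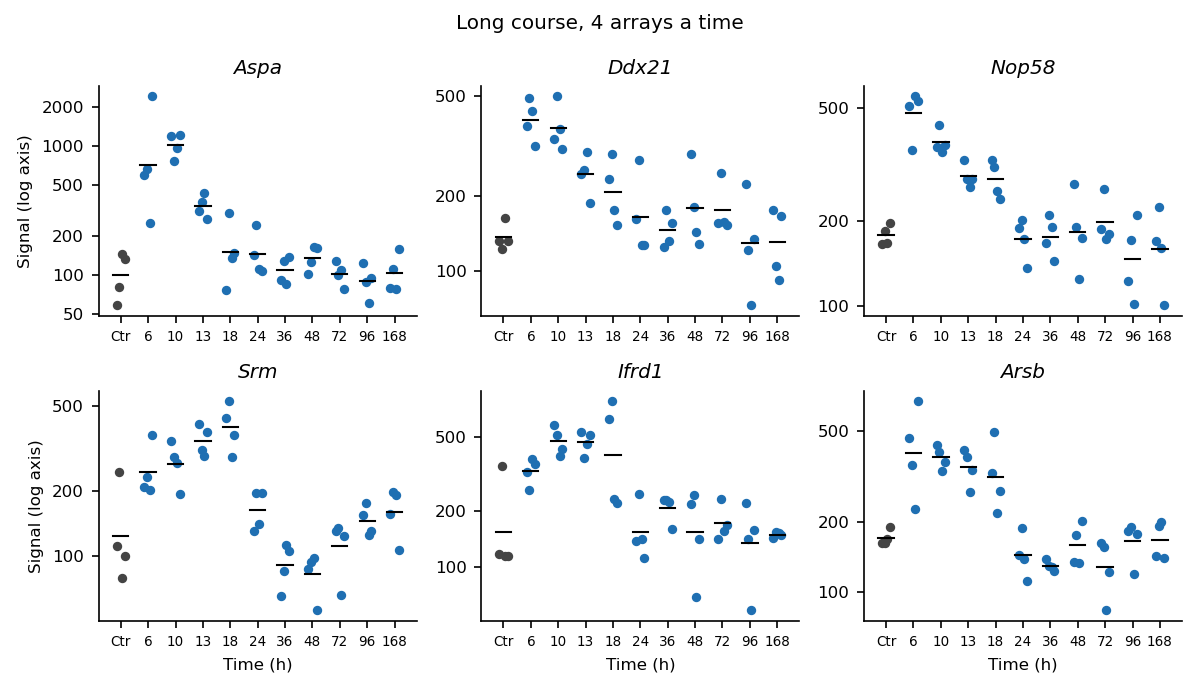
Signal on a log axis of 6 members by time in the long course, 1 point per array (4 a time), with bars at the mean taken on the log2(signal + 32) scale. Aspa is highest at 10 h, Ddx21 and Nop58 at 6 h and Srm at 18 h, and all 6 are lower at 24 h than at 10 h.

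Aspa, aspartoacylase, which splits N-acetylaspartate, had the largest early difference, 1.87. Its signals were 58.2, 80.6, 145 and 133 in the controls and 1203, 760, 964 and 1213 at 10 h, a difference of 3.00 or 8.00-fold. At 18 h they were 75.9, 304, 136 and 148. The 10 h arrays lay far above every control, and by 18 h the groups overlapped. Ifrd1, a transcriptional coregulator, had 117, 349, 114 and 114 in the controls and 581, 510, 394 and 433 at 10 h, for an early difference of 1.26. A single control, replicate 2, lay within the range of the early arrays. Arsb, the lysosomal arylsulfatase B, had 163, 162, 170 and 190 in the controls and 465, 356, 228 and 671 at 6 h, and all 16 early arrays lay above them. Its other probe set, which also could have entered, stood at 0.50.

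Transport and organelle genes formed another group. Slc3a2, the heavy chain shared by several amino acid exchangers, stood at 0.85 early and -0.34 late, and the zinc importer Slc39a14 at 0.65 and 0.01. They are the members among 15 listed transporters, whose medians were 0.06 and 0.03. The mitochondrial import receptor Tomm20 stood at 0.85 (0.59 on its slightly brighter probe set), the import channel Tomm40 at 0.62 and the mitochondrial protein Higd1a at 0.63. Sec23b, of the coat of vesicles leaving the endoplasmic reticulum (0.64), and the cargo receptor Tmed7 (0.60, and 0.25 on another probe set that could enter) are members among 44 secretory genes, whose median was 0.10. Cct6a, of the cytosolic chaperonin (0.67), and Hspa13, a microsomal Hsp70 relative (0.69), are also members. So are Ivns1abp (0.71), the ethanolamine kinase Etnk1 (0.68), the phospholipase Pla2g12a (0.65) and Mob4 (0.64). They are given here for want of another group and were placed after their values were seen. None of 51 listed chaperone and unfolded-protein response genes, which leave out Cct6a and Hspa13, is a member. The median early difference of that list was 0.21. LOC102547700, a long non-coding RNA gene, stood at 0.80, and Tcim at 1.06 with a control range of 8.71 to 137. Acta1, skeletal muscle actin, stood at 0.61, but its controls alone ran from 7.38 to 3964.

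Inflammatory and stress genes made up the rest. Mt2A, a metallothionein that binds zinc and copper, had signals of 3364, 5315, 1572 and 1505 in the controls and 12310, 6421, 8812 and 11790 at 10 h. At 24 h they were 1329, 1941, 1975 and 1266. All 10 h arrays lay above all controls, and the early difference was 1.58. Hmox1, which breaks down heme, had 100, 268, 139 and 168 in the controls and 1037, 417, 712 and 1120 at 6 h. Its excess in the early window of the long course was brief: the difference of 2.06 at 6 h was followed by 0.90, 0.21 and -0.42 at the other early times. Cxcl1, a chemokine that attracts neutrophils, had 279, 651, 90.2 and 15.1 in the controls and 683, 487, 965 and 679 at 6 h, so the groups overlapped. It was the lowest member at 24 h, with a difference of -1.67. Stat3, the transcription factor of interleukin-6 signalling, stood at 0.97 and 0.79 on its pair of probe sets. Fga, the fibrinogen alpha chain, stood at 0.86, but its brighter probe set, which is no member, stood at 0.08. Mt2A, Hmox1, Stat3 and Fga are the members among 23 listed acute-phase genes, whose median was 0.00 early and 0.03 late. Cxcl1 is the only member among 14 listed inflammatory mediators and receptors, whose median was -0.13 early and -0.29 late. Of these 14 genes, 3 reached 0.6 early and 3 were at -0.6 or lower.

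Some members went below the controls late. The lowest means at 72-168 h were those of Rbm3 (-1.34), a cold-induced RNA-binding protein, Fga (-0.67), Cxcl1 (-0.61), Acta1 (-0.45) and Slc3a2 (-0.34), and these 5 were the only members under -0.3. Rbm3 had signals of 236, 1511, 166 and 91.0 in the controls and 73.4, 88.6, 56.8 and 50.1 at 96 h. Control 2 was again the high one, and all 96 h arrays lay below every control.

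At 168 h some members stood above their level at 72 and 96 h. The 168 h mean exceeded that of 72 and 96 h by over 0.6 in 8 of 46 probe sets, those of Mt2A, Cxcl1, Stat3 (both), Fga, Hmox1, Pop4 and Acta1, against 2.17% of the probe sets that could enter. Cxcl1 had 1153, 786, 937 and 6.11 at 168 h, after 5.59, 203, 53.8 and 13.0 at 96 h. Hmox1 had 547, 1097, 565 and 113 at 168 h, after 128, 158, 138 and 63.3 at 96 h. Mt2A had 4809, 10490, 9484 and 967, Fga 2713, 5308, 5540 and 824, and Stat3 419, 687, 592 and 242 on the probe set with the larger early difference. In these 5 genes replicate 4 was the lowest array and lay within or below the range of the controls, while replicates 2 and 3 lay above every control. Replicate 1 of Mt2A and Fga lay within the controls. The other members went otherwise: Pop4 had 127, 170, 141 and 164, and Acta1 had 290, 807, 713 and 3538, with replicate 4 the highest and a mean only 0.04 above the control mean. The excess of 168 h over 72 and 96 h was 2.75 for Cxcl1 and ran from 2.26 to 3.92 with each 168 h array left out in turn. It was 1.81 for Hmox1 (1.41 to 2.39), 1.52 for Mt2A (1.13 to 2.27), 1.45 for Fga (1.13 to 2.04) and 1.17 for Stat3 (0.98 to 1.45), the highest value in each of the 5 being that without replicate 4. Against the controls Fga stood at 0.30 at 168 h, at 0.88 without replicate 4 and at -0.02 without replicate 3.

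**Figure D4:**
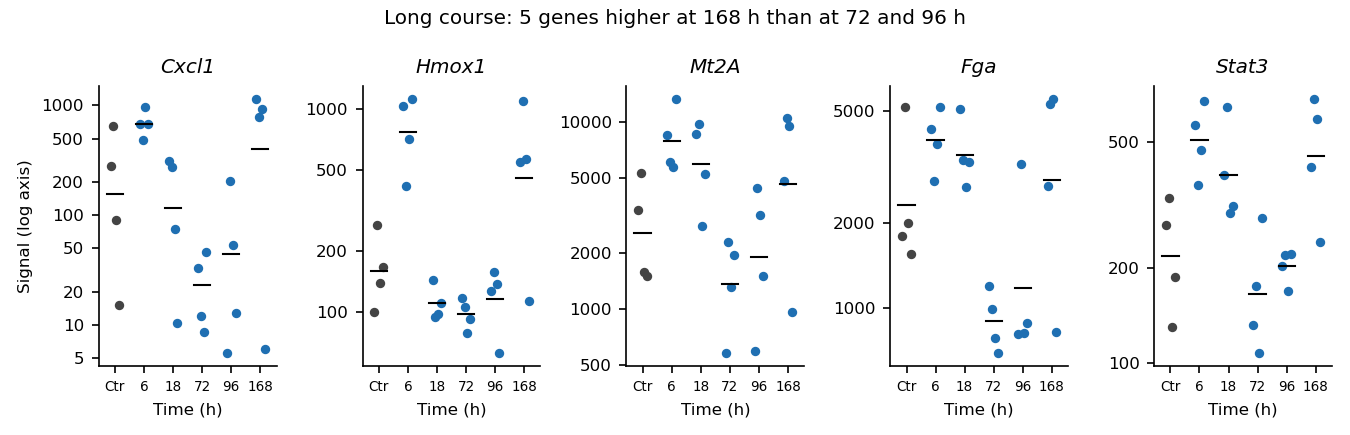
Signal on a log axis of 5 members in the controls and at 6, 18, 72, 96 and 168 h of the long course, 1 point per array, with bars at the mean on the log2(signal + 32) scale. At 168 h replicate 4 is the lowest in every panel, as with Cxcl1 at 1153, 786, 937 and 6.11; 3 arrays lie above every control for Cxcl1, Hmox1 and Stat3, and 2 for Mt2A and Fga.

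Some markers of other cells moved with this. The summed signal of 6 neutrophil markers on the array, of 10 listed, ran from 322 to 14850 at 168 h and from 192 to 1253 in the controls. Most of it was Lcn2, which was 2740, 12600, 14100 and 112 on the 168 h arrays and which hepatocytes also make. The other 5 markers summed to 217, 787, 796 and 210 at 168 h, against 102 to 434 in the controls. S100a9 (92.1, 372, 478 and 8.87) and S100a8 (38.5, 169, 172 and 4.28) were above every control on replicates 2 and 3. Itgam (21.7, 44.6, 9.21 and 22.1) and Cxcr2 (17.6, 31.0, 21.4 and 55.2) were not, with controls of 36.7 to 72.0 and 16.7 to 51.5. Ncf1 was 47.3, 169, 115 and 119, with controls of 15.9 to 114. The Kupffer cell and macrophage markers summed to a mean of 2545 (1556 to 3603) at 168 h, after 1573 and 1578 at 72 and 96 h. The 7 sinusoidal endothelial markers, of 11 listed, summed to 1518, after 1260 and 1271. The part of these cells in the late rise was not tested. The ratio of the 3' to the 5' Gapdh control probe set averaged 0.40 (log2) at 168 h, and was highest on replicate 4 (0.44). It averaged 0.32 and 0.37 at 72 and 96 h, close to 168 h. In the controls it averaged only 0.10 (-0.13 to 0.36), and at the early times 0.09 to 0.32. The part of this difference in the members' values was not tested. The bright spike-ins were those of replicates 2, 3 and 4, which include the lowest array for these 5 genes. With 72 and 96 h alone as the late window the rule found 49 probe sets, 45 of them among the 46.

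The tests that follow use short-course arrays, which the rule did not see. The last ones use the middle times of the long course, which entered the rule only through the mean level. In the short course 18 member genes passed the filter on low signal (a mean above the lowest 30% of probe sets), Acta1 was below it, and 26 genes have no probe set with their symbol on that design. Each gene is read from its brightest probe set. At 4-8 h (17 arrays), 17 of the 18 were higher than in the controls at an adjusted p under 0.05 in limma, against 16.3% of all 6118 probe sets tested. The median difference was 1.32, against 0.10 over all. At 12-18 h 0 of 18 passed in either direction, against 0.539% higher and 0.556% lower, with 2 higher and 0 lower at an unadjusted p under 0.05. At 30-72 h 0 passed, against 0.0817% and 0.0163%, with 1 higher and 1 lower unadjusted. The medians were 0.01 and -0.11. A p that misses the threshold does not show that a gene was back at its control level.

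Hspa13 rose most at 4-8 h. Its signals were 219, 434, 88.5 and 96.5 in the controls and had a lowest, median and highest value of 513, 946 and 1429 at 4-8 h. At 30-72 h these were 46.4, 197 and 261. No 4-8 h array overlapped the controls. The difference was 2.17 ± 0.29 (SE, adjusted p = 1.94e-06, 17 of 17 arrays above the control mean). Ddx21 had 342, 465, 279 and 275 in the controls and 465, 1478 and 1820 at 4-8 h. It rose by 1.77 ± 0.29 (adjusted p = 4.06e-05, 17 of 17). Nop58 had 340, 389, 141 and 145 in the controls and 344, 714 and 2068 at 4-8 h, so the groups overlapped. It rose by 1.65 ± 0.29 (adjusted p = 0.000103, 17 of 17). Ifrd1 had 338, 597, 408 and 478 in the controls and 478, 1329 and 2513 at 4-8 h, and rose by 1.53 ± 0.26 (adjusted p = 7.24e-05, 17 of 17). Hmox1 had 1009, 2938, 1444 and 1775 in the controls and 2066, 4579 and 11170 at 4-8 h, and rose by 1.64 ± 0.32 (adjusted p = 0.000347, 17 of 17). In both genes the lowest 4-8 h arrays lay below the highest control.

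Ppil3 rose by 1.68, the third largest difference. Those of other genes were 1.47 for Slc3a2, 1.39 for Stat3, 1.34 for LOC102547700, 1.31 for Ivns1abp, 1.14 for Tomm20 and 0.88 for Arsb, all past the threshold. Mybbp1a, Hnrnpab, Cct6a, Higd1a and Eif2s1 also passed, at 0.53 to 0.79. Other probe sets of Hmox1, Mybbp1a, Slc3a2, Tomm20, Ppil3 and LOC102547700 passed as well, while that of Stat3 did not (0.38, adjusted p = 0.0922). Fga was the exception, at -0.41 ± 0.23 (adjusted p = 0.192). Its other probe sets stood at -0.68 (adjusted p = 0.0385) and 0.10 (adjusted p = 0.696). Cct6a was the weakest call (adjusted p = 0.0436) and lost it under 16 of 32 alternatives. With 6 h replicate 3 left on its deposited scale 11 of 18 passed.

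**Figure D5:**
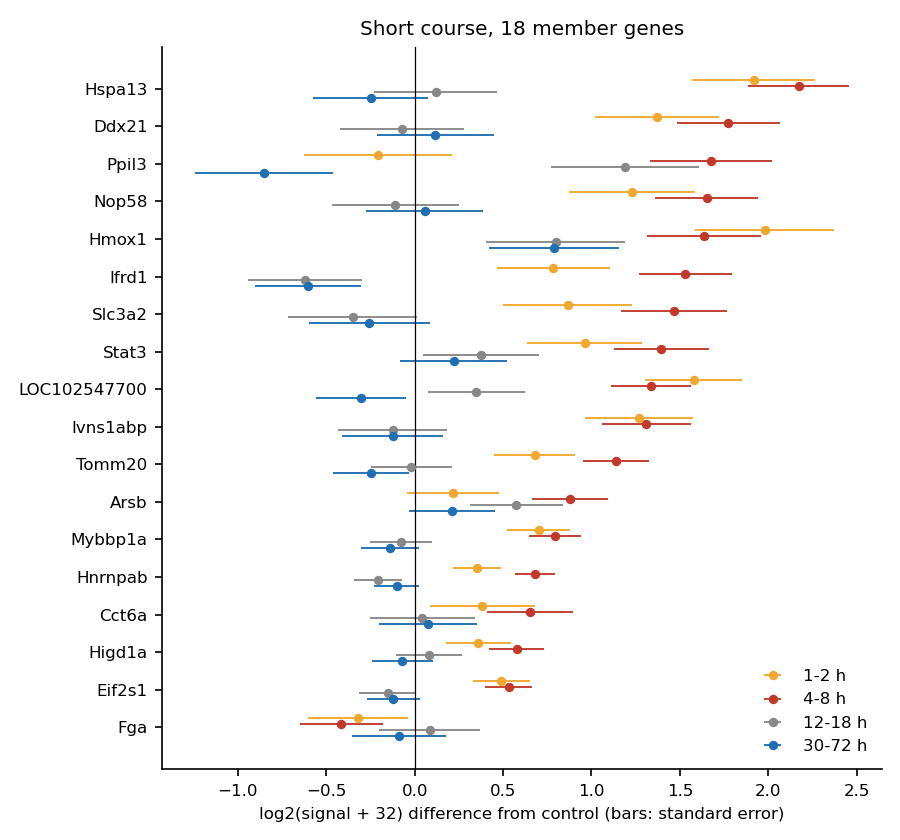
Points are log2(signal + 32) differences from the 4 controls for 18 member genes in 4 windows of the short course, with standard errors from limma. At 4-8 h all genes but Fga lie above 0, and at 30-72 h they lie between -0.85 and 0.79.

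A subset was higher within the first 2 h. At 0.25-0.75 h 5 of 18 were higher, against 2.42% of probe sets tested: Hmox1 (1.70 ± 0.35, adjusted p = 0.00553), Hspa13 (1.53), LOC102547700 (1.19), Ddx21 (1.09) and Nop58 (1.08). This count was 2 without control 3 or 4, and 3 without 0.25 h replicate 1 or 2, 0.5 h replicate 3, or 0.75 h replicate 1 or 3. At 1-2 h 10 of 18 were higher, against 7.13%, led by Hmox1 (1.98), Hspa13 (1.92), LOC102547700 (1.58), Ddx21 (1.37) and Ivns1abp (1.27). It was 6 without control 3 or 4, 1 h replicate 2 or 2 h replicate 1, and 5 with the 6 h array on its deposited scale. None was lower in either window, against 0.932% and 4.95%. The median over the 18 genes was 0.74 already at the first time, 0.25 h, and 0.28 at 0.75 h. It reached 1.14 at 2 h and 1.46 at 5 h, was still 1.02 at 8 h, and had gone to 0.24 by 12 h and -0.20 by 18 h. At 18 h 6 of 18 genes were above the control mean. The courses differed at that time, though the sets of genes read are not the same. In the long course the 18 h median was 0.65, with 44 of 46 probe sets above control. That set includes 26 genes with no probe set on the short-course design. Those long-course values helped to choose the members. In the short course the highest time lay between 4 and 8 h for 15 of 18. Inflammatory genes were higher in the same windows: 13 of 37 mediators and receptors passed at 0.25-0.75 h and 21 of 37 at 1-2 h. So were 2 of 4 neutrophil markers in each window, S100a8 (2.94, adjusted p = 0.0172, then 4.02, adjusted p = 0.00114) and S100a9 (2.05, adjusted p = 0.0225, then 3.23, adjusted p = 0.000577). Their part in the members' early rise was not tested.

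The fall was tested between 30-72 h (7 arrays) and 4-8 h. Of the 18 genes 17 were lower, against 21.5% of probe sets tested, with a median of -1.28 against -0.06. The largest falls were those of Ppil3 (-2.53 ± 0.28, adjusted p = 2.76e-08), Hspa13 (-2.42 ± 0.23, adjusted p = 3.61e-09), Ifrd1 (-2.14 ± 0.22, adjusted p = 7.42e-09), Slc3a2 (-1.72) and Ddx21 (-1.66). All 7 late arrays lay below the 4-8 h mean in each of the 17. Hmox1, which is among them, still differed from control by 0.72, 1.46 and 0.19 at 30, 48 and 72 h. Its 48 h arrays (4558, 4846 and 4493) lay above the highest control (2938). Fga again went the other way, at 0.32 (adjusted p = 0.195).

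Among genes that rose early in the long course but did not return, 103 were measured in the short course. Of these 48 (46.6%) were higher at 4-8 h and 48 (46.6%) were lower at 30-72 h than at 4-8 h, beside 94.4% for each count among the members. The difference between the groups was not tested. Tat, the classical glucocorticoid-induced enzyme of tyrosine breakdown, is such a gene: it stood at 1.41 at 6-18 h and 0.91 at 72-168 h of the long course. In the short course it rose by 0.79 at 4-8 h (adjusted p = 0.0108) and was lower by -0.93 at 30-72 h than at 4-8 h (adjusted p = 0.000221). The receptor gene Nr3c1 stood at -0.45 and -0.47 in the long course.

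The gene lists used above, and a list of proteasome and ubiquitin genes, were also read in the short course. Over all 6118 probe sets tested, 16.3% were higher and 10.5% lower at 4-8 h than in the controls. At 30-72 h 21.5% were lower than at 4-8 h. Of 13 ribosome biogenesis genes measured, 11 were higher at 4-8 h and 11 lower at 30-72 h than at 4-8 h, and 8 of each are not members. Their median difference at 4-8 h was 0.89. Of 21 translation factors and tRNA synthetases 12 were higher at 4-8 h (median 0.45) and 16 lower later. Of 28 proteasome and ubiquitin genes, none of them members, 14 were higher and 22 lower later. Of 16 genes of nucleotide, polyamine and one-carbon synthesis 6 were higher, led by Odc1 (1.88 on its brighter probe set, adjusted p = 6.72e-07). All 4 neutrophil markers tested were higher at 4-8 h. The 5 listed markers on that array summed to 11990 to 21430 there, to 1257 to 25810 in the controls and to 12680 to 19920 at 30-72 h. The 5 sinusoidal endothelial markers summed to 3827 to 7098 at 4-8 h and 2366 to 3919 in the controls, and 2 of the 5 were higher and 1 lower. The part of these cells in the members' rise was not tested.

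Between 24 and 48 h of the long course no member passed the threshold. Each gene was read from its brightest probe set, which for Fga and Tomm20 is not the member; of the 46 member probe sets themselves 0 were called in either comparison. Between 48 and 24 h 0 of 45 genes were called by limma, against 0.513% higher and 0.972% lower of 11106 probe sets, with 1 higher and 5 lower at an unadjusted p under 0.05. The nearest was Srm, at -0.77 ± 0.22 (adjusted p = 0.0739), with all 48 h arrays below all 24 h arrays. Between 36 h and the mean of 24 and 48 h 0 of 45 were called, against 0.099% and 0.153%, with 2 higher and 0 lower unadjusted. Mt2A had the largest difference there, 1.16 ± 0.48 (adjusted p = 0.541).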

How the data were processed

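The values the authors deposited are linear-scale intensities, 1 for each probe set of each array. How they were scanned and summarised is not stated by the labels. Trimmed means (2% cut at each end) were 150 in the long course and 801 in the short course, except short-course 6 h replicate 3, which lay at 150 and was rescaled to the others. Signals were taken as log2(signal + 32). Of 15923 and 8799 probe sets, 12783 and 7006 had 1 symbol. No pair of arrays was identical.

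Each course was fitted as 1 model of group means (limma 3.58.1, R 4.3.3, variance trend on intensity), leaving out control probe sets and the dimmest 30% by mean signal. The Benjamini-Hochberg adjustment ran over all probe sets tested, and 0.05 was the threshold. Windows are unweighted means of times. Since the scales of the courses differ, levels were compared only within a course. The code was tested on simulated data. Other tables and figures came from Python 3.11.15.

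The members, lists and tests were chosen with earlier results of these data known. Named are the 20 members with the largest early difference, the 5 lowest late, the 2 on either side of each threshold, up to 12 called members at 4-8 h and 5 elsewhere, up to 4 per list, and Tat and Nr3c1; the remaining members are named once to account for all. The pairing of same-numbered replicates was checked by the correlation of their deviations from group means. Its median was 0.06 in the long and -0.01 in the short course, against -0.015 and 0.002 for other pairs. Of the same-numbered pairs 75 of 220 and 90 of 338 were above 0.1. On these medians the numbers were not taken as pairs in the main fit, and a replicate block was run as an alternative. The alternatives are listed with their effect at the end.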

Additional observations from a re-analysis of the deposited data

Results flagged for a closer look

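Of 148 groups of 4 arrays read for the members given array by array, 7 held an array far from the other 3, and chance gives about 1 in 20. Ifrd1 was 349 on control replicate 2, against 114 to 117 on the other controls, and 160 on 36 h replicate 4, against 222 to 230. Cxcl1 was 6.11 on 168 h replicate 4, against 786 to 1153. Srm was 66.2 on 72 h replicate 3, against 124 to 135. Fga was 3257 on 96 h replicate 2, against 806 to 883. Ddx21 was 247 on 72 h replicate 2, against 152 to 157. Arsb was 120 on 96 h replicate 3, against 178 to 191. The members whose effect differed most between windows of the short course, 30-72 h against 4-8 h, were Ppil3 (-2.53), Hspa13 (-2.42), Ifrd1 (-2.14), Slc3a2 (-1.72) and Ddx21 (-1.66), as limma's test of that difference showed.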

How the results depend on the processing

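Set size: each long-course control, early or late array was left out in turn (32 arrays). The rule then found 29 to 52 probe sets, 22 to 46 of them among the 46. The lowest count was without control 4. With other constants, scalings and blocks the rule found 39 to 56. Chosen after the values were seen, controls 1 and 3 alone gave 44 (23 shared), and 24 to 168 h as the late window 49 (43 shared). Short course, called members: at 0.25-0.75 h (5) quantile normalization, median centring, no filter and the 6 h array on its deposited scale each gave 3, array weights 8, the replicate block 2, and left-out arrays 2 to 7. At 1-2 h (10) the deposited scale gave 5 and left-out arrays 6 to 11. At 4-8 h (17) the deposited scale gave 11 and left-out arrays 16 to 18. At 30-72 against 4-8 h (17) left-out arrays gave 15 to 17 and the rest 12 to 17. The replicate block gave 1 call between 48 and 24 h, where there were 0. It moved the set and the other counts, apart from 0.25-0.75 h, by under 1.5 times. The correlation of same-numbered replicates had a low median (0.06 in the long and -0.01 in the short course), though some pairs went above 0.1. No gene's call reversed: of 1459 gene results under an alternative 1352 kept and 107 lost the call. The cause of these changes was not tested. Dim probe sets limit the rest: fold changes near a signal of 32 are understated.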
